A study of Mus musculus with 4 samples.

Results

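The genes described here are the loci of the mouse retina that still carry a RIKEN clone name, a symbol that ends in Rik, and that were expressed. They were chosen by the deposited FPKM values, which are reads scaled to transcript length and library depth: a member has a symbol ending in Rik and a mean of at least 0.5 FPKM over the 4 libraries. The rule found 566 of the 890 Rik genes among the 18471 genes in the table. RIKEN names were given in large-scale sequencing of mouse cDNA clones to transcripts without a known function, so these symbols stand for predicted proteins and for long non-coding RNAs, which are transcripts with no evident coding sequence. Cilia are microtubule-based projections of the cell surface. In the retina the light-sensing outer segment of a photoreceptor is built from one, and RFX and Foxj1 transcription factors are the best-known activators of cilia genes. Transcripts that move with known cilia genes are often examined as candidate parts of the organelle.

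The libraries were made from total RNA of retinas of individual embryos at E19, 2 wild-type and 2 Foxn3KO. The Foxn3KO embryos carry a deletion of exon 3 of Foxn3, a gene for a forkhead transcription factor, and come from the line C57BL/6NJ-Foxn3em1(IMPC)Bay/Mmnc. The study is about the place of Foxn3 in the control of cilia genes in the retina, and the comparison of the genotypes shows which Rik genes moved when those genes did. The labels name no tissue-specific driver for the deletion.

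Total counts ranged from 22543531 to 29360129 per library, so 3 counts, the detection limit used, are 0.103 to 0.134 CPM (counts scaled to the TMM-adjusted library size). Foxn3 itself had 2421 and 2712 counts in the wild-type libraries and 4181 and 3219 in the Foxn3KO libraries, a log2 fold change of 0.54. Counts per gene do not show whether exon 3 is present, so they do not check the labels. Wild-type replicate 1 differed from the other 3 libraries in sex-linked genes, with 83073 counts of Xist against 9 to 19 and none of Ddx3y, Eif2s3y and Kdm5d. Markers of the lens, which lies close to the retina in the eye, summed to 9.40 and 76.2 CPM in wild-type and 362 and 364 CPM in Foxn3KO, and 11 of 11 tested rose; in wild-type replicate 1 the crystallin gene Crygs was at 0. Markers of ependymal cells and choroid plexus, other tissues with motile cilia, summed to 209 to 227 CPM in wild-type and 263 to 264 CPM in Foxn3KO, with 2 of 8 tested higher and 2 lower and none at 0. Of 10 tested pigment epithelium markers 4 fell and none rose. Retina progenitor markers summed to 3629 to 3783 CPM in every library, and of 11 tested 3 rose and 2 fell. Of 11 tested photoreceptor precursor markers 5 rose and 0 fell. Of 10 tested amacrine and horizontal cell markers 1 rose and 4 fell, and of 10 tested ganglion cell markers 3 rose and 1 fell. In bulk RNA, fewer cells of a type and less RNA per cell cannot be told apart.

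Most expressed Rik genes did not pass the test for a genotype difference, and 19 followed the cilia rise. Of the 561 members tested, 44 rose and 62 fell in Foxn3KO (edgeR quasi-likelihood test, Benjamini-Hochberg adjusted p under 0.05 over all 17300 genes tested). In total 106 members were called, or 18.9%, against 21.9% of all tested genes. Rises made up 7.84% of the members and 12.3% of all genes, and falls 11.1% and 9.66%. Among all genes with at least 0.5 FPKM, a more similar level, the shares were 13.4% for rises and 10.9% for falls. The other 5 members had too few counts to be tested. In each of the 106 called members the 2 groups did not overlap. The same held for 325 of the 561 tested members and 10449 of all 17300 tested genes, so it adds little to a call. The falls depended more on the test than the rises: with DESeq2 31 members fell and 30 rose. Over all genes the falls also dropped more with DESeq2, from 1672 to 886, and the rises from 2123 to 1539.

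A member was counted as following the cilia rise where it was called higher and its log2 fold change was at least 1, which is a doubling. This asks for a size of rise only and is not specific to cilia, since 11 of 11 tested lens markers also met it. By that rule 19 members, here called followers, did so, or 3.39% of those tested, against 2.86% of all tested genes and 2.54% of genes with at least 0.5 FPKM. Over all classes, the share of Rik genes that doubled was thus near that of other genes. The expression rule forced part of this count. For 22 members the wild-type mean was under 0.5 FPKM, so that they passed through the Foxn3KO libraries and had to be higher there. Of the 19 followers, 10 are among them. These are 2410004P03Rik, 4921536K21Rik, 4930483P17Rik, 6820408C15Rik, 4930444P10Rik, 1500032F14Rik, 4933439K11Rik, D130043K22Rik, 1110002E22Rik and 4933425D22Rik. Their values are given below as a description, since the rule required a higher level in Foxn3KO. Among the 539 tested members with a wild-type mean of at least 0.5 FPKM, 33 rose, 62 fell and 9 doubled, the last a share of 1.67%. Conversely, 16 members had a Foxn3KO mean under 0.5 FPKM, and none of these was called.

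The median log2 fold change over the tested members was -0.06, beside -0.0047 over all tested genes. Named cilia genes moved far more. Of 80 tested genes on a list of motile cilia components, 78 rose and 68 at least doubled, with a median log2 fold change of 2.39. On the list of intraflagellar transport genes, which carry cargo along the cilium, 29 of 34 rose, 1 fell and the median was 0.76. Of the 34, 12 rose and at least doubled. On the list of BBSome and transition zone genes, which sort and gate ciliary proteins, 33 of 47 rose, 2 fell and the median was 0.46. Of the 47, 6 rose and at least doubled. Foxj1, the master regulator of motile cilia, went from 8.01 ± 0.436 to 176 ± 1.58 CPM (SD, n = 2 each), for a log2 fold change of 4.45. Rfx2 had a log2 fold change of 1.41 and Rfx3 of 0.40. On a further list, of cilia transcription regulators, 8 of 17 tested genes rose, 2 fell and the median was 0.18. As a class, therefore, the Rik genes did not show the shift of the other cilia lists, which a small number of Rik genes shared.

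**Figure D1:**
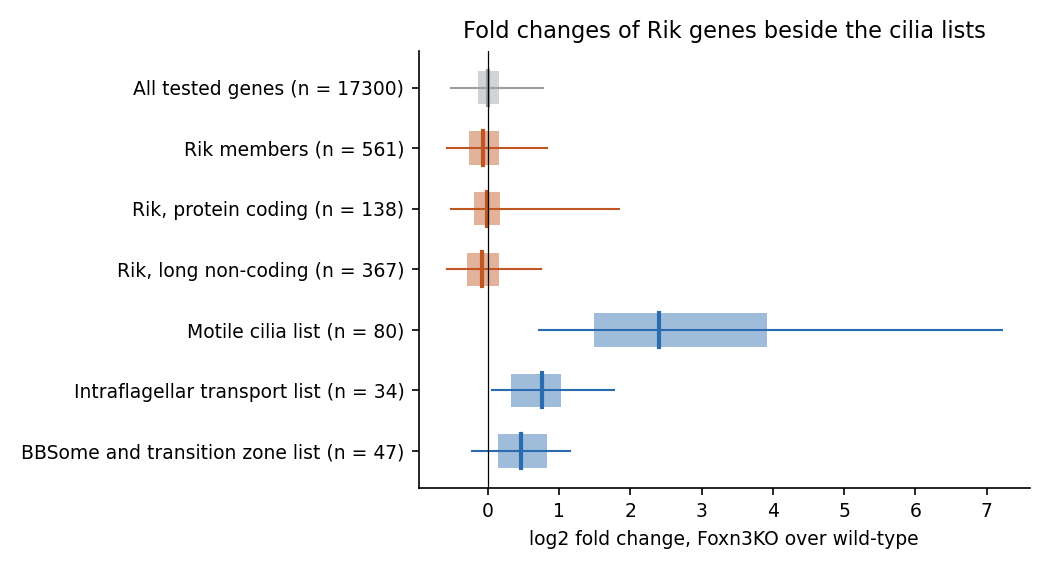
Log2 fold change of Foxn3KO over wild-type (horizontal axis) for all tested genes, the tested Rik members and their protein-coding and long non-coding subsets, and 3 cilia lists. Thick ticks are medians, boxes the 25th to 75th percentiles and lines the 5th to 95th percentiles; the Rik boxes lie over that of all genes, with a longer upper line for the protein-coding ones, while the motile cilia list has a median of 2.39.

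By the mouse GENCODE M21 annotation, 138 tested members were protein coding, 367 long non-coding and 5 pseudogenes or other, and 51 had no entry. Among the protein-coding members 20 rose, 20 fell and 10 doubled, with a median log2 fold change of -0.01. Among the long non-coding members 22 rose, 37 fell and 8 doubled, with a median of -0.08. For comparison, 14.1% of 13910 other coding genes rose and 10.5% fell, and 4.77% of 1594 other long non-coding genes rose and 7.09% fell. Doubling was found in 7.25% of the coding members and 2.96% of the other coding genes, and in 2.18% of the long non-coding members and 2.57% of the others. The other genes were not held to the expression rule, and 6 of the 10 coding followers are among the members that had to be higher in Foxn3KO; the difference was not tested. Coding Rik genes were also more abundant than non-coding ones, with a median over members of 4.95 against 1.42 mean FPKM. The remaining follower, 1700086L19Rik, had no entry in this annotation.

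The 3 largest rises were in protein-coding loci. 2410004P03Rik (ENSMUSG00000071398) had 1 and 5 counts in the wild-type libraries and 321 and 273 in Foxn3KO. It was close to the detection limit in wild-type and well expressed in both Foxn3KO libraries. Its summed level was 99.9-fold higher, with an exact 95% interval of 45.6 to 273 that covers counting error only, and its fitted log2 fold change was 6.59 (SE 0.29, edgeR adjusted p = 8.84e-12). Leaving out wild-type replicate 1 gave 5.94 and leaving out replicate 2 gave 7.995, so its size rests on a handful of wild-type counts. 1700003E16Rik (ENSMUSG00000030030) was the most abundant follower. It had 53 and 53 counts in wild-type and 1436 and 1151 in Foxn3KO, or 2.04 ± 0.132 and 50.4 ± 1.47 CPM (SD, n = 2 each). The log2 fold change was 4.62 (SE 0.10, edgeR adjusted p = 2.44e-16), close in size to that of Foxj1.

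4921536K21Rik (ENSMUSG00000020434) had 35 and 30 counts in wild-type and 330 and 242 in Foxn3KO, a log2 fold change of 3.14 (SE 0.18, edgeR adjusted p = 2.68e-10). The fold was similar in whichever library was left out, between 2.97 and 3.33 on the log2 scale. 6820408C15Rik had 27 and 14 counts against 130 and 105, and 4930444P10Rik had 19 and 20 against 125 and 90, with log2 fold changes of 2.52 and 2.47. Wild-type replicates of 6820408C15Rik lay at 1.09 and 0.515 CPM, and both were far under the Foxn3KO values of 4.46 and 4.69 CPM. Its log2 fold change was 3.14 when wild-type replicate 1 was left out and 2.06 when replicate 2 was. 1700088E04Rik and 1700030J22Rik were expressed at higher levels. 1700088E04Rik had 169 and 215 counts against 963 and 740, and 1700030J22Rik 143 and 190 against 825 and 635. Both rose by similar factors, with log2 fold changes of 2.16 (SE 0.09) and 2.15 (SE 0.10); the Foxn3KO replicates were at 33.1 and 33.0 CPM for the former and at 28.3 and 28.4 CPM for the latter.

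D130043K22Rik, for which RefSeq lists the synonym Kiaa0319, a membrane protein gene known from work on dyslexia and neuronal migration, had 64 and 58 counts in wild-type and 235 and 184 in Foxn3KO, a log2 fold change of 1.79 (SE 0.17). 2210408I21Rik had 325 and 418 counts against 808 and 668, a log2 fold change of 1.01 (SE 0.09). It stands just past the doubling that defines a follower, although its groups are well apart at 14.2 ± 1.61 and 28.8 ± 1.47 CPM (SD, n = 2 each). 1110002E22Rik (ENSMUSG00000090066), the gene given as a marker of these loci, had 63 and 104 counts in wild-type and 210 and 157 in Foxn3KO. Its level went from 3.18 ± 0.91 to 7.11 ± 0.142 CPM (SD, n = 2 each), for a log2 fold change of 1.15 (SE 0.18, edgeR adjusted p = 0.000158). The wild-type replicates differed from each other by more than the Foxn3KO ones, and the log2 fold change was 0.90 when wild-type replicate 1 was left out and 1.49 when the other was. At a mean of 0.513 FPKM it lay just inside the expression rule, with 0.317 FPKM in wild-type, so that it is among the members that had to be higher in Foxn3KO.

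Of the loci that M21 lists as long non-coding, 4930483P17Rik rose the most, with 22 and 27 counts in wild-type and 167 and 136 in Foxn3KO, a log2 fold change of 2.64 (SE 0.22). 1700086L19Rik, which has no M21 entry and which RefSeq lists as a long non-coding RNA, rose more, and had 19 and 27 counts against 160 and 142, a log2 fold change of 2.73 (SE 0.23). 2010204K13Rik, on the X chromosome, had 80 and 72 counts against 421 and 340, a log2 fold change of 2.34 (SE 0.14). The wild-type libraries, which differ in Xist and in the Y-linked genes, were at 3.23 and 2.65 CPM for this X-linked transcript. The part of sex in its difference was not tested. Of 12 tested members on the X chromosome 2010204K13Rik was the only one that rose, and 1 fell. A730035I17Rik had 49 and 62 counts against 242 and 179, a log2 fold change of 1.93 (SE 0.17).

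Counts were lower in several other non-coding followers. 1500032F14Rik had 5 and 2 counts in wild-type and 18 and 21 in Foxn3KO. Its summed level was 5.62-fold higher with an exact 95% interval of 2.49 to 14.9 (counting error only), and its edgeR adjusted p of 0.00833 became 0.057 without Foxn3KO replicate 2. Its log2 fold change of 2.45 became 3.28 on leaving out wild-type replicate 1 and 1.88 on leaving out replicate 2. 4933425D22Rik had 17 and 22 counts against 47 and 31, a log2 fold change of 1.01 (SE 0.33, edgeR adjusted p = 0.038). It was the weakest follower: it was no longer called with DESeq2 (adjusted p = 0.203) or without Foxn3KO replicate 1 (adjusted p = 0.240), Foxn3KO replicate 2 (0.062) or wild-type replicate 1 (0.111). 4933439K11Rik had 13 and 22 counts against 78 and 48, a log2 fold change of 1.85 (SE 0.32). A430108G06Rik had 88 and 97 counts against 360 and 243, and C330011M18Rik 54 and 64 against 207 and 142, with log2 fold changes of 1.71 (SE 0.14) and 1.57 (SE 0.18).

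Summed over the 19 followers, the level was 50.2 and 55.3 CPM in wild-type and 243 and 247 CPM in Foxn3KO. The followers were selected for a rise in these same libraries, so a higher sum in Foxn3KO is given by the selection. The wild-type libraries, whose lens markers differed 8.11-fold, had a median ratio of replicate 2 to replicate 1 of 1.12 over the followers (range 0.365 to 4.56, the highest for 2410004P03Rik at 1 and 5 counts). The part of the lens, ependymal and pigment epithelium markers in the Foxn3KO difference was not tested. Without wild-type replicate 1, the library that differed in the sex-linked genes, 17 members followed, of which 16 are among the 19, in a fit where 2.91% of all tested genes were called higher and at least doubled.

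**Figure D2:**
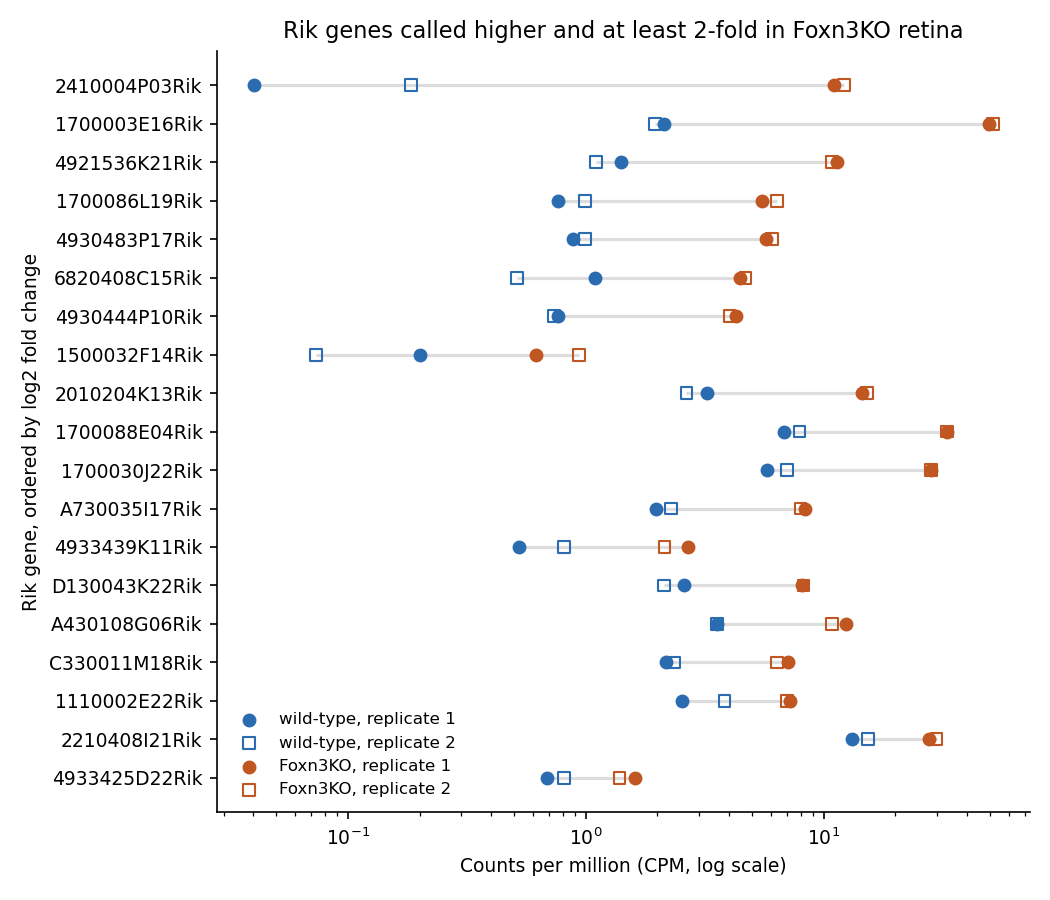
CPM (log scale, horizontal axis) of the 19 Rik genes that were called higher and at least doubled, 1 gene per line from the largest to the smallest log2 fold change. Circles are replicate 1 and squares replicate 2, blue for wild-type and orange for Foxn3KO; in every line both Foxn3KO libraries lie to the right of both wild-type libraries, from 6.59 on the log2 scale at the top to 1.01 at the bottom.

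A further 25 members rose by less than a doubling, with a median log2 fold change of 0.59. They ranged from A930007A09Rik, at 0.95, to 9530068E07Rik, at 0.20; these ends were picked out after their values were seen. One Rik gene, G430095P16Rik, singled out in the same way, had a log2 fold change of 1.496 but missed the threshold (edgeR adjusted p = 0.079).

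Sequence before the start site was taken from the RefSeq promoter table (GRCm38.p6), which held 12 of the 19 followers and 346 of the 562 distinct member symbols; the counts themselves were made on mm39. Each window is the 250 bases before the annotated start. It was searched on both strands for the X-box that RFX factors bind, written as GTTNCC, 1 to 3 bases and GGNAAC with at most 1 mismatch in the 10 fixed letters, for the forkhead motif GTAAACA, and for the FOXN motif GACGC. Below are 5 followers with large rises, shown because they let a reader see which of these letters lie at the start of the genes that moved most. Capitals mark the matches: an X-box match in 4921536K21Rik and GACGC or its reverse complement in the others. Bases that an M21 exon covers on either strand are left out, which leaves 113 bases for 4921536K21Rik and 216 for 1700086L19Rik. For 1700003E16Rik it leaves 6, since its window lies within exons of Wdr54, and none are printed. 2010204K13Rik has a pair of windows, of which the first is shown.
2410004P03Rik, chr12:17011728-17011977, minus strand: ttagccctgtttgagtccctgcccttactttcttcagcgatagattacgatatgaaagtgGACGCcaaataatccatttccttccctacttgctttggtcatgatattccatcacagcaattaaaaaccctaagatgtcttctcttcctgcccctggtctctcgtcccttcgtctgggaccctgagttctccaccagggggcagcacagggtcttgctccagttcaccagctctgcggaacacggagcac
4921536K21Rik, chr11:3895127-3895239, minus strand: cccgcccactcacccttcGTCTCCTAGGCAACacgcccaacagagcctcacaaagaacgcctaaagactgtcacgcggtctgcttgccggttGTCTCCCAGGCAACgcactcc
1700086L19Rik, chr12:74284026-74284241, plus strand: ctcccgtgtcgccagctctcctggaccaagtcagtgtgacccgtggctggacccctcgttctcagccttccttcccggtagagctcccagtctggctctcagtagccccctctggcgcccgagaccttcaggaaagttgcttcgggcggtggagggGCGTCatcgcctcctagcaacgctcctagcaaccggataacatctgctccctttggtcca
6820408C15Rik, chr2:152436240-152436489, plus strand: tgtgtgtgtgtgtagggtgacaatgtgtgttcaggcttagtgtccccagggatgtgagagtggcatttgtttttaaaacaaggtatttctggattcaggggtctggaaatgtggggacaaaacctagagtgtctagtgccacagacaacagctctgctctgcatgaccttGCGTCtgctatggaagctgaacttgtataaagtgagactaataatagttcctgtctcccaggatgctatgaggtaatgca
2010204K13Rik, chrX:7422989-7423238, minus strand: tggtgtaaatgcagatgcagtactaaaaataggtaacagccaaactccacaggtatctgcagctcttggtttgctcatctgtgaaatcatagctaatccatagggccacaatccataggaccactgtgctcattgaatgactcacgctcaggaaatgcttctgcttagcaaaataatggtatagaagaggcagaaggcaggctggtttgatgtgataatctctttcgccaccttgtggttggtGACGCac

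4921536K21Rik holds 2 near matches to the X-box, GTCTCCTAGGCAAC at 95 to 82 bases before the start and GTCTCCCAGGCAAC at 21 to 8 bases before it. Both lie in the stretch between its own start and the exons of Dusp18, the gene on the other strand. 4933439K11Rik holds 1, GTTGCCTGGATAC, at 73 to 61 bases before the start. An X-box with at most 1 mismatch was therefore found in 2 of the 12 followers with a window, or 16.7%. Both are among the members that had to be higher in Foxn3KO, and no follower outside that group had a match. The share was 2.17% of 46 members that fell, 4.84% of 289 other members, 24.6% of 57 motile cilia genes and 4.54% of all 27025 genes with a window. No follower had an exact X-box, which 0.766% of all genes had. GTAAACA was in none of the 12 and in 3.54% of all genes. GACGC was in 8 of the 12, or 66.7%, in 44.6% of the other members, 42.1% of the motile cilia genes and 24.8% of all genes. It was in 34.8% of the members that fell and 39.1% of the 274 other doubled genes. With 12 genes each one is a large step in the share, and a match of letters is a description and not a binding site.

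Many Rik genes start beside another gene on the opposite strand, so the partners were examined. In the M21 annotation, 217 head-to-head pairs of a tested member and a tested gene with starts within 1000 bases were found. For 7 followers with such a partner, the partner rose in 6. For the 19 members that fell it rose in 1, and for the 191 other members in 25, or 13.1%. Over all pairs the partner rose in 32, or 14.7%. Across the 217 pairs, which share libraries and in part their promoters, the correlation of the log2 fold changes was 0.45 (Pearson) and 0.25 (Spearman), given as a description. In the 7 pairs with a follower the partner moved less than the Rik gene. The Rik genes of these pairs were selected for a doubling and the partners were not, so this order is in part given by the selection. Dusp18, a dual-specificity phosphatase gene opposite 4921536K21Rik, went from 28.5 ± 0.667 to 93.2 ± 3.20 CPM (SD, n = 2 each), for a log2 fold change of 1.71 against 3.14. Wdr54, a WD-repeat gene opposite 1700003E16Rik, had 0.77 against 4.62. Slf1, opposite 2210408I21Rik, had 0.39 against 1.01, and Polr2f, a subunit of nuclear RNA polymerases opposite 1700088E04Rik, 0.20 against 2.16. Zcchc3, opposite 6820408C15Rik, had 0.08 and did not pass the test (edgeR adjusted p = 0.328).

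**Figure D3:**
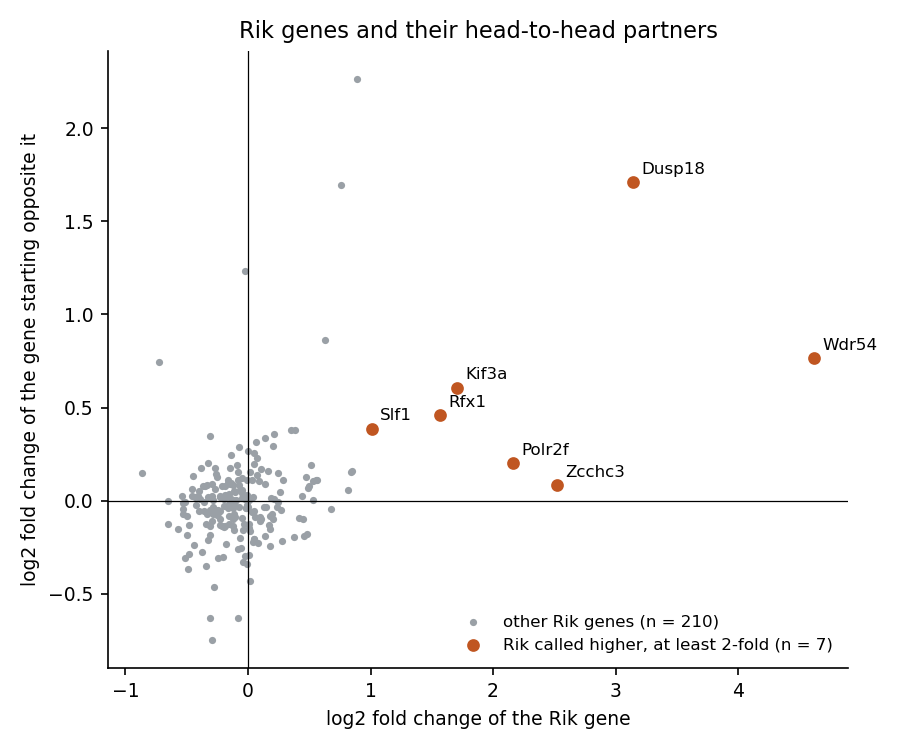
Log2 fold change of the tested gene that starts head-to-head with a Rik gene (vertical axis) against that of the Rik gene (horizontal axis), 1 point per pair, 217 pairs. Orange points with partner names are the 7 followers, all right of 1 and with partners from 0.08 (Zcchc3) to 1.71 (Dusp18); the grey points gather around 0.

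Several Rik genes lie beside known cilia genes. A430108G06Rik starts 66 bases from Kif3a, a motor subunit that drives transport into the cilium, which went from 171 ± 0.153 to 260 ± 0.451 CPM (SD, n = 2 each), for a log2 fold change of 0.61. C330011M18Rik starts opposite Rfx1, a gene of the RFX family, with a log2 fold change of 0.46. 4933439K11Rik overlaps Cfap45, a protein inside the microtubules of motile cilia, on the opposite strand, and Cfap45 went from 2.12 ± 0.0823 to 22.3 ± 1.75 CPM (SD, n = 2 each), for a log2 fold change of 3.39. Among smaller rises, 1700037C18Rik (0.63) starts opposite Cluap1 (0.86), an intraflagellar transport subunit, and 9330151L19Rik (0.25) overlaps Dnaaf2 (0.87), a dynein assembly factor. Neither Rik call held with DESeq2, where the adjusted p-values were 0.107 and 0.111. G730003C15Rik, opposite the transition zone gene Tmem237 (0.38), had a log2 fold change of 0.39 and did not pass the test (edgeR adjusted p = 0.168).

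Overlap limits how far these levels belong to the Rik transcript. Of the 18 followers with an M21 entry, 9 overlap another annotated gene, as do 333 of all members. The libraries were made with a strand-specific kit, but whether strand was used in counting is not given in the sources used here, so reads of overlapping genes on opposite strands may not have been told apart. Besides 4933439K11Rik, this touches 1110002E22Rik, which overlaps Gm5105, a gene not analysed here, C330011M18Rik, which overlaps Rfx1, A730035I17Rik, antisense to Prdm8 (log2 fold change 0.35), and 1700088E04Rik, which overlaps Micall1 (-0.22). 4933425D22Rik lies within Tex26 on the same strand (1.08), where strand does not separate them. In addition, 7 members share 3 repeated symbols and were kept apart by gene identifier.

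More Rik genes fell than rose, by smaller amounts. Of the 62 that fell, 51 did so by less than 1.5-fold, and 1 fell by at least a factor of 2. That one was A830036E02Rik (ENSMUSG00000084890), a long non-coding locus with 837 and 869 counts in wild-type and 402 and 297 in Foxn3KO, or 32.9 ± 1.25 and 13.5 ± 0.384 CPM (SD, n = 2 each), for a log2 fold change of -1.28 (SE 0.08, edgeR adjusted p = 1.12e-09). It is antisense to the corneal keratin gene Krt12, which had 1.495 CPM in wild-type and a log2 fold change of -0.10. 2610037D02Rik fell with little spread, from 307 and 346 counts to 199 and 151, a log2 fold change of -0.89 (SE 0.12). A330074H02Rik, within the host gene of a miR-9 copy, Mir9-3hg, went from 77 and 102 to 56 and 33 counts, a log2 fold change of -0.997 (SE 0.23), while Mir9-3hg was at -0.03. A930004J17Rik, within the splicing factor gene Srsf4, went from 407 and 398 to 269 and 198 counts, a log2 fold change of -0.78, while Srsf4 was at 0.13.

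9330159M07Rik, listed in RefSeq also as mU50hg-a, went from 189 and 192 to 137 and 85 counts, and 6720407P12Rik from 271 and 260 to 180 and 139, with log2 fold changes of -0.78 and -0.72. A pair of further large falls was less stable. 1700048O20Rik had 545 and 315 counts in wild-type and 278 and 199 in Foxn3KO, a log2 fold change of -0.86. The wild-type libraries were far apart, and without wild-type replicate 1 the value was -0.32 (adjusted p = 0.070). 9030612E09Rik, with 49 and 73 counts against 34 and 32, had a log2 fold change of -0.86 (edgeR adjusted p = 0.032) and did not pass with DESeq2 (adjusted p = 0.170).

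The most abundant Rik genes differed little between the genotypes. 6330403K07Rik had the highest mean, 70.2 ± 0.69 FPKM in wild-type and 85.8 ± 4.2 in Foxn3KO (SD, n = 2 each), and rose with an edgeR adjusted p of 0.000301 and a log2 fold change of 0.29. B230219D22Rik, at 45.9 ± 0.16 and 40.7 ± 0.56 FPKM, had a log2 fold change of -0.18 (edgeR adjusted p = 0.00609). The call was lost without Foxn3KO replicate 1 (adjusted p = 0.083) or 2 (0.169). 1110004F10Rik, which RefSeq also lists as Smap, had a mean of 67.0 FPKM and a log2 fold change of 0.04. D030056L22Rik, 4833439L19Rik (synonym P33monox) and 1810037I17Rik had means of 51.2, 50.5 and 50.3 FPKM and log2 fold changes of -0.02, 0.06 and 0.10, and did not pass the test. The doubled genes sat lower in the range of levels, between 0.513 and 11.8 mean FPKM. At the edge of the rule, 1700081N11Rik, A930003O13Rik and 9330136K24Rik lay just inside at 0.5001, 0.5003 and 0.5008 mean FPKM, and 4930520O04Rik, 9530052C20Rik and 4930549G23Rik just outside at 0.497, 0.495 and 0.492.

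**Figure D4:**
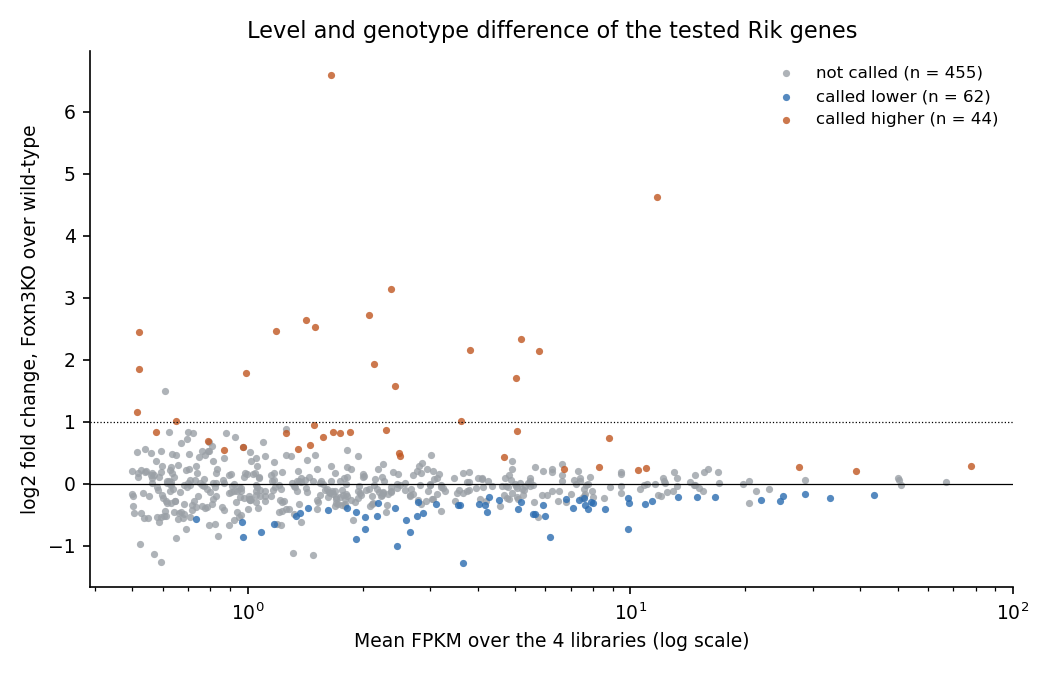
Log2 fold change of Foxn3KO over wild-type (vertical axis) against mean FPKM over the 4 libraries (log scale) for the 561 tested Rik members. Blue points are the 62 that fell, orange the 44 that rose and grey the 455 not called; the dotted line marks a doubling, and no orange point above it exceeds 11.8 mean FPKM.

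The authors' deposited table has 61 members under an adjusted p of 0.05, of which 30 were higher and 31 were lower in Foxn3KO, and all 61 were also called here. By adjusted p alone it calls 17 of the 19 followers. Among these, 2210408I21Rik has a log2 fold change of 0.98 there, short of the doubling used here, and of 1.01 with DESeq2 here. For the 2 followers that it does not call, the authors' deposited table has no adjusted p-value (1500032F14Rik) and 0.196 (4933425D22Rik). The labels speak of individual embryos but do not say which library came from which. The p-values of the main test therefore rest on the spread between 2 libraries per genotype, which edgeR moderates with that of all tested genes.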

How the data were processed

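RNA was sequenced from retinas of 2 wild-type and 2 Foxn3KO mouse embryos; groups and replicate numbers come from the labels. The authors deposited 1 table with raw counts per gene and library and FPKM values, both made on mm39 per the submitters' processing notes. The aligner, the counting tool and the use of strand and of molecular identifiers are not given in the sources used here. The table also holds a mean signal per gene, log2 fold changes and p-values that the authors deposited from DESeq2, per the submitters' processing notes.

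One repeated row was dropped. Counts were filtered with filterByExpr, which left 17300 of 18471 genes, scaled with TMM and tested two-sided for genotype with the quasi-likelihood fit of edgeR 4.0.16 (R 4.3.3), p-values being adjusted by Benjamini-Hochberg over all 17300 genes (threshold 0.05). Standard errors come from the log2 fold change over the root of its F value. The procedure was tested on simulated data. FPKM values served to choose members (mean of at least 0.5) and to compare levels between genes.

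The members and gene lists were chosen with earlier results of these data known. Genes were named by rule: 1110002E22Rik; the 16 largest rises and 8 largest falls among called members without overlap; the 6 most abundant members; 3 on each side of the expression rule; members beside a gene of the cilia lists; and Foxn3, Foxj1, Rfx2 and Rfx3. The remaining followers were added. Biotypes, chromosomes and neighbours come from GENCODE M21 (GRCm38), matched by gene identifier for 515 of 566 members. Its coordinates gave the head-to-head pairs, the overlaps, the start distances and the exons left out of the promoter windows. The counts were made on mm39, so neighbours may differ there. Alternatives were DESeq2 1.42.0, limma-voom (limma 3.58.1), the earlier edgeR fit, RLE and total count scaling, no count filter, a minimum of 10 counts per library, a replicate block, other expression rules, an adjusted p under 0.01 and leaving out each library.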

Additional observations from a re-analysis of the deposited data

How the results depend on the processing

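No called gene and no count changed direction. The log2 fold changes of 3 named genes that were not called had the other sign without 1 library: 1700081N11Rik (-0.16, and 0.47 without Foxn3KO replicate 1), 4930520O04Rik (-0.20, and 0.06 without Foxn3KO replicate 2) and D030056L22Rik (-0.02, and 0.0037 without wild-type replicate 1). The number of members that fell depended most on the processing: 62 in the main test, 31 with DESeq2, 35 at an adjusted p under 0.01, and 35 to 83 when each library was left out in turn; the cause was not tested. Those that rose numbered 44, with a range of 34 to 52 when each library was left out in turn and 30 with DESeq2. The 19 followers were 17 with DESeq2, at least 10 counts in every library or total count scaling, 18 at an adjusted p under 0.01, 14 with a mean of at least 1 FPKM, and 17 to 23 when each library was left out; without the expression rule 31 of all tested Rik genes followed, since more genes enter. Of the followers with a wild-type mean of at least 0.5 FPKM, 9 in the main test, 8 followed with total count scaling, and 9 to 12 followed when each library was left out. With the replicate block 45 rose, 69 fell and 19 followed; libraries with the same number did not deviate together (correlation 0.0153), so the numbers were not taken as pairs. Fits that leave out a library assume that the lone sample varies like the other group. Depth limits most the loci with few counts, such as 1500032F14Rik with 2 to 21 per library.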

Other observations

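Of the 890 Rik genes, 324 lay under a mean of 0.5 FPKM and 224 of these were tested. In Foxn3KO 12 of them were called higher and 1 lower, and all 12 at least doubled. Called genes were 5.80% of these 224, against 21.9% of all tested genes. Those called higher and at least doubled were 5.36%, against 2.86%. The shares of all genes cover every level. Among genes with at least 0.5 FPKM they were 24.3% and 2.54%. Genes under that level were thus called less often and doubled more often, so the 2 groups are not matched. The difference was not tested.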
